A study of Homo sapiens with 21 samples.

Results

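Collagens are the main structural proteins of the extracellular matrix, each built from 3 chains that wind into a triple helix. The genes described here are those whose symbol is COL, a number, A and a number, and every transcript of theirs in 6 tables of transcript changes is a member. That gave 106 transcripts of 40 genes, out of 21537 transcripts and 11851 gene names listed in at least 1 table, and 195 table entries in all. GENCODE 44 holds 44 genes with such a symbol, and COL5A2, COL6A5, COL10A1 and COL20A1 had no transcript in any table. Of the rest, 9 genes were listed in 1 table and 5 (COL1A1, COL3A1, COL5A1, COL6A1 and COL6A2) in 5 of the 6 tables. The choice used only the symbol, but a transcript is listed only where its change had a q-value (a p-value adjusted over all transcripts tested) of at most 0.05, so members with smaller changes are not seen and no count below is a count of all collagen transcripts.

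The cells were PGP1, an established human induced pluripotent stem cell (iPSC) line, differentiated towards cardiomyocytes with small molecules that act on the Wnt pathway. Wild-type cells were sampled at 5 stages, called iPSC, M (for mesoderm), CMes (for cardiac mesoderm), CP (the progenitors of the heart) and CM (for cardiomyocyte). CMs of 2 UBE2B-/- lines were sampled too, with 3 libraries in each of the 7 groups and 21 libraries in all. UBE2B is the ubiquitin-conjugating enzyme of the complex that places monoubiquitin on histone H2B. Each line came from a separate editing experiment, so a line stands for 1 clone, and the mutant cells were plated at a higher number than wild type. Wells of beating CMs were selected with lactate, which cells other than cardiomyocytes use poorly, whereas wells that did not beat and cells of the earlier stages had no such selection. The mutant CMs sequenced were beating cells, per the study's text. Each replicate was a plate that began differentiation at another time. No value per library was available, so the depth is unknown, and the error after ± is the standard error of the fit over the 6 libraries of a pair of stages or the 9 CM libraries. In bulk RNA, fewer cells of a type cannot be told apart from less RNA per cell.

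Fibril-forming collagens (types I, II, III, V, XI, XXIV and XXVII) give tissue its tensile strength and are made mostly by fibroblasts and related mesenchymal cells. Collagen IV forms the sheet of basement membranes, which surround cardiomyocytes and underlie endothelium, and collagen VI forms beaded filaments between both. The FACIT collagens (for example types IX, XII, XIV and XVI) sit on the surface of fibrils, collagens XIII, XVII, XXIII and XXV span the cell membrane, and collagens XV and XVIII are multiplexins of the basement membrane zone. Many of these proteins contain chains from different genes, and for collagen IV the partner chains lie head to head on the chromosome, in 3 pairs.

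The 3 collagen IV pairs are shown first because the members of a pair start close to each other on opposite strands. The start of COL4A1 lay 126 bases from that of COL4A2 on chromosome 13, the starts of COL4A4 and COL4A3 were 418 bases apart on chromosome 2, and those of COL4A6 and COL4A5 were 379 bases apart on chromosome X (COL4A6 has a further start, 1415 bases away). The sequences are from RefSeq on GRCh38.p14, read in the direction of COL4A2, COL4A3 and COL4A5, and hold the whole interval for the COL4A1 pair and the 250 bases before the start for the others. Capitals mark the letters CCAAT of the CCAAT box, written ATTGG where the motif is on the opposite strand, and the letters GGGCGG of the GC box. The GC box reads CCGCCC where it is on the opposite strand. Neither motif overlaps the other, and the letters of the TATA box, TATAAA, were searched on both strands and are in none of the 3 sequences.
COL4A1 and COL4A2, chr13:110307158-110307283, plus strand: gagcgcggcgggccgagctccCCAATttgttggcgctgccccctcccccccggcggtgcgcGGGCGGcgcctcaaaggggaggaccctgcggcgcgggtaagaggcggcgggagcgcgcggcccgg
COL4A4 and COL4A3, chr2:227164374-227164623, plus strand: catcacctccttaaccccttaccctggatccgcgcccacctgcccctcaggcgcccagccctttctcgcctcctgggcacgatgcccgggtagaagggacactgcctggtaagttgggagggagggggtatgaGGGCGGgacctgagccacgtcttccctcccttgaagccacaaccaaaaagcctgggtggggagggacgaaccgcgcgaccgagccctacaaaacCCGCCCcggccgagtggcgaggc
COL4A6 and COL4A5, chrX:108439588-108439837, plus strand: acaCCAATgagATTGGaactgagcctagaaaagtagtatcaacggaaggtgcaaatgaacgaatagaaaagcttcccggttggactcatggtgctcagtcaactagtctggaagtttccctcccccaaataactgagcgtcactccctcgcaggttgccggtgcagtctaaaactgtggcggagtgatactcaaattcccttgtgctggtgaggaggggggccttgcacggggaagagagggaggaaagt
The interval between COL4A1 and COL4A2 holds 1 CCAAT and 1 GGGCGG, the COL4A3 stretch 2 GC boxes and the COL4A5 stretch a CCAAT on each strand. Over the 250 bases before 35116 RefSeq starts, 32.0% held the CCAAT letters, 42.6% the GC box letters and 10.7% the TATA letters on either strand, and of the 44 windows of 32 collagen genes 27.3%, 54.5% and 18.2% did (12, 24 and 8 windows). The GC content was 80.2%, 66.4% and 51.2% in the 3 sequences, against a median of 58.0% over all windows. A match describes the letters and does not show a bound site.

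Each collagen IV pair kept its 2 genes on the same side of zero wherever both were listed. Values are group means recovered for each fit, which are geometric means of estimated counts plus 0.5, and then the log2 change at the later stage. COL4A1 and COL4A2 encode the chains of the most widespread collagen IV. The mean of COL4A1 (ENST00000375820.10) went from 5392 at M to 17774 at CMes (1.72 ± 0.13, q = 3.4e-39) and, in the next fit, from 17887 to 41865 at CP (1.23 ± 0.19, q = 3.15e-09). COL4A2 (ENST00000360467.6) went from 5244 to 9194 (0.81 ± 0.12, q = 2.4e-09), which passed the q limit but not the fold limit, and then from 9253 to 21933 (1.25 ± 0.15, q = 5.4e-15). Neither of these transcripts was listed from CP to CM or in a UBE2B-/- line, and the COL4A2 retained-intron transcript ENST00000650225.1 rose at 3 transitions, by 1.19 ± 0.32, 1.32 ± 0.23 and 0.85 ± 0.26.

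COL4A3 and COL4A4 encode chains of the collagen IV of kidney and lung basement membranes and were scarce here. COL4A3 (ENST00000396578.7) fell from 38.2 at CMes to 7.0 at CP (-2.45 ± 0.81) and rose from 6.26 at CP to 57.1 at CM (3.19 ± 0.92). COL4A4 (ENST00000396625.4) fell from 93.5 to 24.7 (-1.92 ± 0.40) and rose from 21.9 to 283 (3.69 ± 0.87), and it had fallen from 172.2 to 55.0 between iPSC and M (-1.65 ± 0.26). COL4A5 and COL4A6 had the opposite course, higher at CMes and CP and lower at CM. COL4A5 (ENST00000328300.10), the partner chain of COL4A3 and COL4A4 in the protein, rose from 816.3 to 3793 between M and CMes (2.22 ± 0.15, q = 5.5e-49), whereas its log2 changes of 0.68 ± 0.10 to CP and -0.65 ± 0.15 to CM were under the fold limit. COL4A6 (ENST00000334504.11) rose from 695.7 to 4548 (2.71 ± 0.23) and from 4577 to 9205 (1.01 ± 0.13), and fell from 8151 to 667.9 at CM (-3.61 ± 0.83). Neighboring transitions share the libraries of a stage, so a fall after a rise uses the shared stage in both changes.

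**Figure D1:**
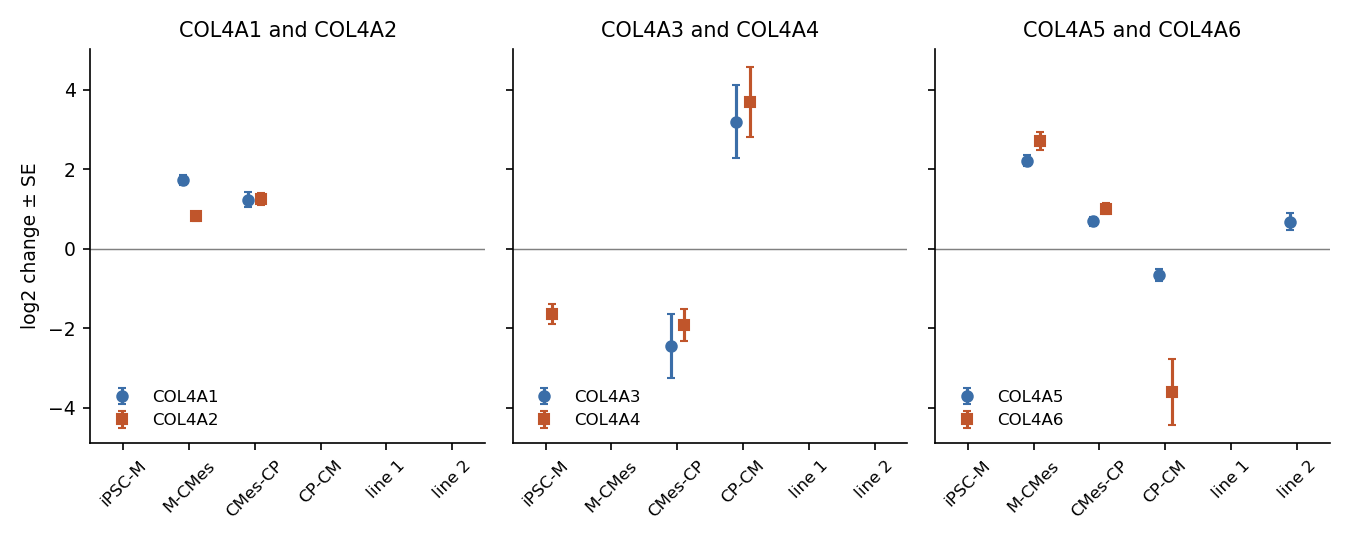
Log2 change (vertical axis) of 1 transcript of each collagen IV gene in each comparison that lists it, with 1 panel for each head-to-head pair and bars of 1 standard error. The last 2 positions are the UBE2B-/- lines against wild-type CM, a missing point is a transcript that the table does not list, and COL4A3 and COL4A4 moved from -2.45 and -1.92 at CMes to CP to 3.19 and 3.69 at CP to CM.

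Across the 4 transitions, calls required q-values no higher than 0.05 together with changes of 1.79-fold or more in either direction (on the natural log scale, a size of log2(1.5)). Collagen calls were mostly lower at the first transition, mostly higher at the second and in both directions at the last 2. From iPSC to M, 10 collagen transcripts were called lower and 1 higher, beside 1.62% and 1.24% of all transcripts tested. From M to CMes, 5 were lower and 34 higher, beside 2.65% and 3.81%. At CP, compared with CMes, 25 were higher (3.80% of all tested) and 15 lower (2.63%), and at CM, compared with CP, 32 were lower (6.99%) and 29 higher (8.25%). A group mean was under 3 estimated counts for 16 of the 34 higher at CMes, and for 13 of the 32 lower and 12 of the 29 higher at CM. All these calls rest on sleuth's normal p-values, and with a t distribution on 4 degrees of freedom 2 of the 32 and 1 of the 29 at CM were still called and 0 at the other 3 transitions, as also happened to nearly all calls of other genes. How many collagen transcripts were tested is not known, so the shares were set side by side by gene. At M to CMes, 18 of 44 collagen genes (40.9%) had a higher call against 8.90% of 20020 protein-coding genes, and 2 (4.55%) had a lower call against 6.52%. At CMes to CP the collagen share was above the share of coding genes in both directions, 27.3% against 8.28% for higher calls and 22.7% against 6.87% for lower ones. At CP to CM it was 31.8% against 16.8% for higher calls and 38.6% against 14.9% for lower ones. At iPSC to M, 20.5% of the collagen genes had a lower call against 4.17%, and 2.27% a higher call against 3.10%. The number of transcripts tested per gene is not known, and a gene with more of them has more chances of a call.

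**Figure D2:**
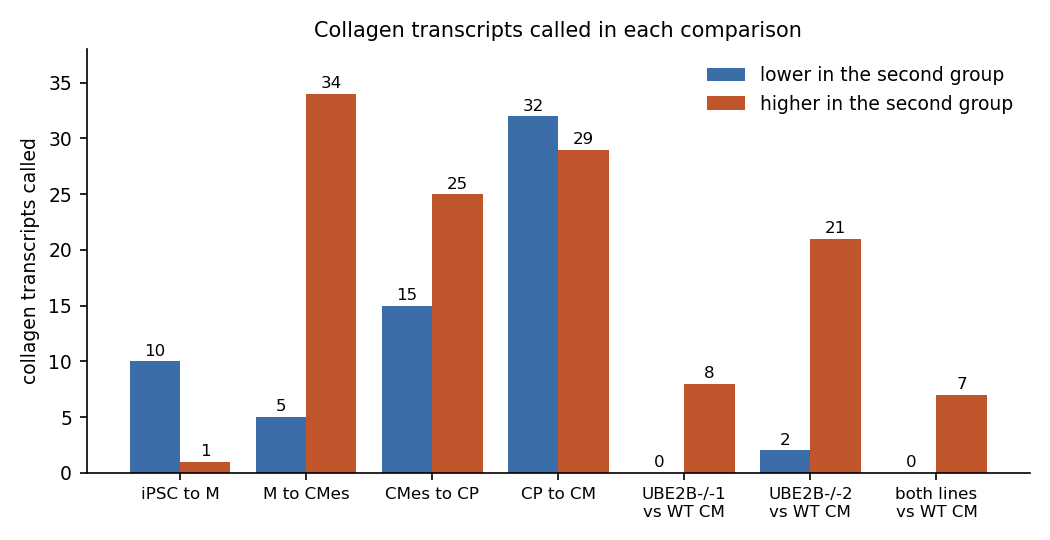
Number of collagen transcripts called in each comparison (vertical axis), lower or higher in the second group named. The highest bars are the 34 higher transcripts from M to CMes and the 32 lower ones from CP to CM, and no transcript was called lower in UBE2B-/-1 or in both lines.

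Among the fibril-forming collagens, COL3A1 had the longest climb. Its main transcript (ENST00000304636.7, gene at chr2:188974373-189012746 on GRCh38) had no estimated count in any M library, a mean of 52.0 at CMes and 29257 at CP, which is 9.13 ± 0.35 log2 units above CMes (q = 1.75e-146). From CP to CM it fell from 25908 to 6406 (-2.02 ± 0.44, q = 7.4e-05), and a further transcript, ENST00000317840.9, did the same with changes of 10.06 ± 1.21 and -2.50 ± 0.53. COL1A1 (chr17:50184101-50201632) and COL1A2 (chr7:94394895-94431227) encode the 2 chains of collagen I and did not move alike at the start. COL1A1 (ENST00000225964.9) fell from 2990 to 1419 between iPSC and M (-1.08 ± 0.13, q = 2.4e-14), and COL1A2 (ENST00000620463.1) rose from 1274 to 2377 (0.90 ± 0.23, q = 0.0036). Both rose from CMes to CP, COL1A1 from 1610 to 33500 (4.38 ± 0.27, q = 1.2e-57) and COL1A2 from 1979 to 4809 (1.28 ± 0.26, q = 3.4e-05). A further COL1A2 transcript, ENST00000297268.10, rose by 1.26 ± 0.16 there.

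From CP to CM, COL1A2 fell from 4258 to 2229 (-0.93 ± 0.14, q = 3.4e-09), and the main COL1A1 transcript was not listed. Of the smaller COL1A1 transcripts, the 4-exon coding ENST00000507689.1 rose from 45.9 to 136.0 (1.57 ± 0.39), and the retained-intron ENST00000474644.1 went from 199.5 to no estimated count. COL5A1 (chr9:134641803-134844843), a chain of the minor fibrillar collagen V that regulates fibril diameter, came earlier. It (ENST00000371817.7) went from 167.1 at M to 6032 at CMes (5.17 ± 0.96, q = 3.4e-06), from 6070 to 13171 at CP (1.12 ± 0.16, q = 6.9e-11), and from 11663 to 5238 at CM (-1.15 ± 0.18, q = 9.2e-09). Another COL5A1 transcript, ENST00000618395.4, which GENCODE 44 does not hold, went the other way from CP to CM, from 13.4 to 1262 (6.56 ± 2.42). COL2A1, the cartilage collagen, rose from 485.7 to 1348 between M and CMes (1.47 ± 0.38, q = 0.0021) and was listed nowhere else. COL11A2, a chain of the cartilage fibril collagen XI, was listed from CP to CM alone, with 9 transcripts all higher, from 120.0 to 1013 for ENST00000549811.3 (3.08 ± 0.60). Of these, 6 form 3 pairs with identical values, and 3 of the 6 are identifiers that GENCODE 44 does not hold, so the 9 entries stand for 6 sets of values.

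**Figure D3:**
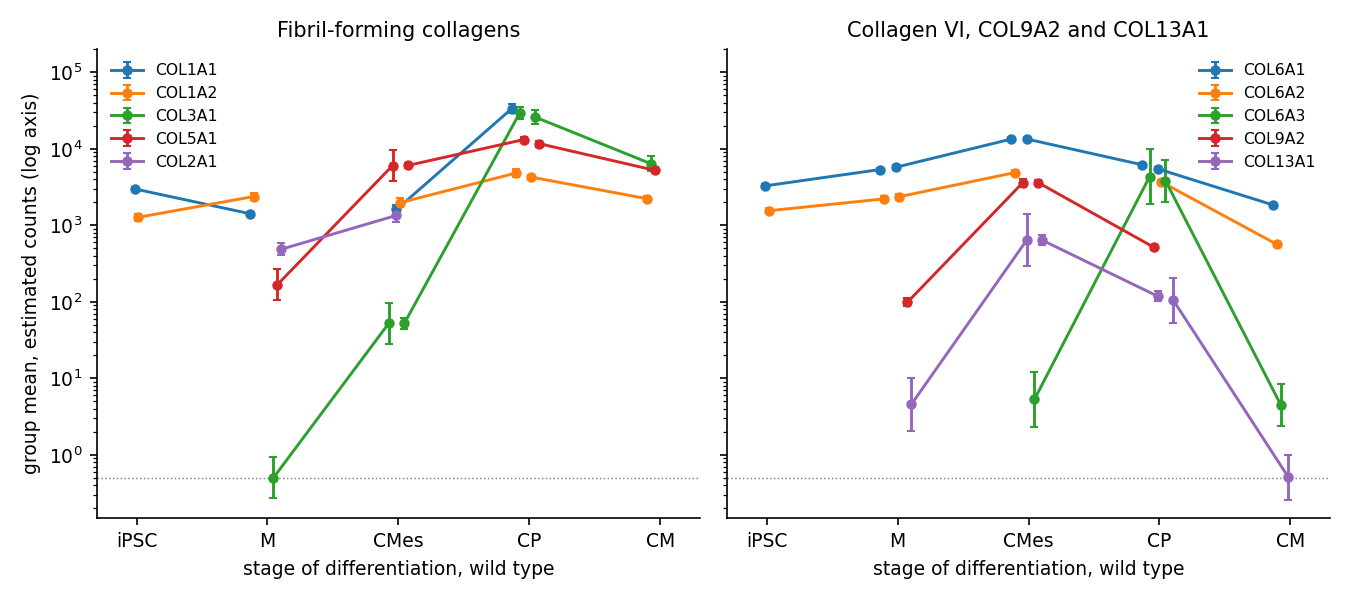
Group mean in estimated counts (log axis) at the 2 stages of each transition that lists the transcript, with bars of 1 standard error of a group mean and a dotted line at 0.5, the value of a group with no estimated count. COL3A1 climbs from that line at M to 29257 at CP, the COL6A3 transcript ENST00000472056.5 stands at 4338 at CP and at about 5 before and after, and COL9A2 peaks at CMes.

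The collagen VI genes separated after CMes. COL6A1 (chr21:45981770-46005050) and COL6A2 (chr21:46098112-46132848) encode 2 short chains, and COL6A3 (chr2:237324003-237414328) encodes the third, longer chain. COL6A1 (ENST00000361866.7) had means of 3268 at iPSC and 5348 at M (0.71 ± 0.11, q = 8.7e-09, under the fold limit). It rose from 5721 to 13354 at CMes (1.22 ± 0.13, q = 9.6e-18), then fell from 13439 to 6192 at CP (-1.12 ± 0.11, q = 2.6e-20) and from 5483 to 1849 at CM (-1.57 ± 0.14, q = 2.3e-28). COL6A2 (ENST00000300527.8) changed by 0.52 ± 0.16 from iPSC to M, under the fold limit, rose by 1.04 ± 0.18 to CMes and fell from 3683 to 565.1 at CM (-2.70 ± 0.14, q = 1.9e-82), the collagen change with the largest ratio to its standard error at that transition. At CMes to CP, COL6A2 was listed only through ENST00000397763.5 (-0.60 ± 0.16, q = 0.0041). The COL6A3 transcript ENST00000472056.5 instead rose from CMes to CP, from 5.28 to 4338 (9.68 ± 1.71, q = 5.3e-07). It fell from 3842 to 4.53 at CM (-9.73 ± 1.29, q = 2.1e-12). The COL6A3 transcripts did not all move together at CMes to CP. The one with the highest mean there, the retained-intron ENST00000491769.1, went from 592.3 to 966.2 (0.71 ± 0.22), under the fold limit. ENST00000353578.8 went from 1.79 to 654.0, and ENST00000409809.5 went from 26.3 to no estimated count. COL6A6 rose by 2.27 ± 0.42 from M to CMes and fell by 4.60 on the log2 scale (standard error 0.88) from CP to CM.

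Of the FACIT collagens, COL9A2 (chr1:40300489-40317813), a chain of the cartilage collagen IX, marked the CMes stage. Its mean (ENST00000372748.8) went from 98.5 at M to 3584 at CMes (5.18 ± 0.23, q = 7.3e-106) and from 3607 to 518.0 at CP (-2.80 ± 0.15, q = 8.4e-78), the largest ratio to the standard error among the higher collagens of the one table and among the lower ones of the other. All 5 listed COL9A2 transcripts were higher at CMes. A COL9A3 transcript, ENST00000466532.1, was also called higher there (from 1.07 to 21.4, 4.32 ± 1.33). COL9A1 was called lower from iPSC to M (-0.90 ± 0.25) and from CMes to CP (-1.85 ± 0.52) and higher from CP to CM (2.08 ± 0.69), and COL9A3 (ENST00000649368.1) went from 428.9 at CP to 0.522 at CM. COL14A1, a collagen of the fibril surface, was the main collagen lost at CMes, from 1643 to 152.8 for ENST00000309791.8 (-3.43 ± 0.18, q = 3.3e-80), and its 3 other listed transcripts were also lower, between -6.40 and -4.19. COL28A1 was the other gene with a lower call there (-2.90 ± 0.86). COL19A1 went from 0.752 to 213.2 at CMes, from 214.5 to 1239 at CP (2.53 ± 0.26, q = 1.1e-19) and from 1097 to 83.2 at CM (-3.72 ± 0.64).

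Other FACIT collagens rose with the CM stage. COL21A1, which is found in blood vessel walls and heart, went from 0.806 to 1082 for ENST00000467045.5 (q = 2.0e-27), and 2 more of its transcripts from no estimated count to 87.2 and 50.1. COL12A1 rose from 746.7 to 2311 (1.63 ± 0.28, q = 1.4e-07) and COL16A1 from 67.5 to 221.4 (1.71 ± 0.32, q = 1.3e-06), with 4 more COL16A1 transcripts higher. COL22A1 rose by 1.53 ± 0.49 from CMes to CP and by 1.30 ± 0.41 to CM. At iPSC to M, COL12A1 and COL16A1 had been among the lower collagens, with changes of -2.41 ± 0.77 and -0.98 ± 0.32, beside COL11A1 (-1.87 ± 0.49) and COL26A1 (-0.94 ± 0.29).

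Of the membrane-spanning collagens, COL13A1 had 7 transcripts higher at CMes, the main one (ENST00000357811.7) from 4.55 to 634.2 (7.12 ± 1.60). It was 118.5 at CP (-2.43 ± 0.32, q = 4.0e-12) and 0.507 at CM. COL23A1 fell from 169.9 to 52.9 between iPSC and M (-1.68 ± 0.36), rose to 669.3 at CMes (3.57 ± 0.33, q = 3.0e-25) and fell from 377.2 to 74.9 at CM (-2.33 ± 0.66). COL25A1 rose by 1.19 ± 0.30 to CP and fell by 1.37 on the log2 scale (standard error 0.42) to CM, and 2 COL17A1 transcripts with no estimated count at CP had means of 16.7 and 11.2 at CM. The multiplexin COL18A1, whose C-terminal fragment is endostatin, had means of 8343 at M and 12677 at CMes (0.60 ± 0.13, q = 1.6e-04, under the fold limit) and rose from 12757 to 32741 at CP (1.36 ± 0.14, q = 7.1e-21). Its main transcript was not listed from CP to CM, where the 8-exon ENST00000459895.1 changed by -0.76 ± 0.21 (q = 0.0022). COL15A1 rose from 13.8 to 98.2 at CM (2.83 ± 0.59), and COL8A1 went from no estimated count to 35.4. COL26A1 fell from 645.4 to 44.9 (-3.85 ± 0.66).

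Levels of different genes were compared as estimated counts per kilobase of transcript. At CMes, of the genes listed from CMes to CP, COL6A1 had the highest level (3197 per kilobase), followed by COL4A1 (2735), COL18A1 (2359), COL4A2 (1435) and COL9A2 (1265), with COL1A1 at 272.2 and COL3A1 at 9.54. COL6A1 lay 0.23 log2 units above COL4A1 (standard error 0.16) and COL4A1 0.21 above COL18A1 (standard error 0.16), so the order of these 3 is not settled. The main COL6A2 transcript (ENST00000300527.8) was not listed from CMes to CP, so this order leaves it out. Its CMes level in the M to CMes fit was 1416 per kilobase, beside 1426 for COL4A2 and 1257 for COL9A2 in that fit. At CP the order was COL4A1 (6401), COL18A1 (6054), COL1A1 (5664), COL3A1 (5329) and COL4A2 (3403). The first 4 of these lay within 0.10 log2 units of their neighbors, less than the standard errors of those differences (0.16 to 0.31). The COL1A2 transcript with the highest mean has no length in GENCODE 44, so COL1A2 was left out of the order. Its other listed transcript, ENST00000297268.10, had levels of 354.2 per kilobase at CMes and 850.5 at CP.

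M to CMes and CP to CM share no library. Of the 17 collagen transcripts called in both, 15 were higher at CMes and then lower at CM and 2 were higher in both. Transcripts of the same gene, such as ENST00000357811.7 and ENST00000520267.5 of COL13A1, are counted separately, so the 17 are not independent. Over all genes, of the transcripts called higher at CMes and called again, 745 were lower at CM (67.3%) and 362 higher, against 88.2% lower of the collagen ones.

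Markers of other cell types moved with these changes. Of 9 fibroblast and mesenchymal markers, 6 rose from M to CMes, 4 rose and THY1 fell from CMes to CP, and 6 fell and 2 rose from CP to CM, where the summed mean of the 8 listed ones was 17565 at CP and 2765 at CM. LUM, which encodes a proteoglycan that binds collagen fibrils, went from 32.2 at CMes to 5873 at CP (7.51 ± 0.26) and from 5201 to 410.1 at CM (-3.66 ± 0.46), PDGFRA fell from 6442 to 803.1, and POSTN and MFAP5 rose by 1.88 ± 0.52 and 3.55 ± 0.97. Of 6 endoderm and liver markers, 4 rose to CP and 4 fell to CM, with summed means of the listed ones of 27659 at CP and 607 at CM in their own fits. All 5 cardiomyocyte markers rose at both transitions, with a sum of 366821 at CM, and all 5 pluripotency markers fell from CMes to CP. None of the 8 fibroblast and mesenchymal markers listed from CP to CM had a CM mean under 3 estimated counts. Of 5 smooth muscle markers, 2 rose to CP and all 5 rose to CM, with summed means of 7982 at CP and 24530 at CM, and ACTA2 went from 42.5 at CMes to 4863 at CP (6.84 ± 0.37). Of 4 epicardial markers, TBX18 and WT1 rose to CP, from 2.54 to 111.4 and from no estimated count to 24.1, and WT1 fell to CM. Of 5 cartilage and notochord markers, MATN3 alone was listed from M to CMes (156.1 and 272.6, 0.80 ± 0.22, under the fold limit), and ACAN and MATN3 fell to CM. Of 5 endothelial markers TEK was the only one listed at any transition and was called lower at 2. The part of these cells in the collagen changes was not tested.

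The enzymes that build collagen also changed. Of 35 genes for collagen synthesis, processing and cross-linking, 2 were called higher and 3 lower from iPSC to M and 9 higher and 1 lower from M to CMes, where 8.90% and 6.52% of protein-coding genes had such calls. From CMes to CP 10 were higher and 1 lower (8.28% and 6.87% of coding genes), and from CP to CM 8 were higher and 11 lower (16.8% and 14.9%). P4HA1, a subunit of prolyl 4-hydroxylase, rose by 2.01 ± 0.18 to CP and fell by 2.20 on the log2 scale (standard error 0.22) to CM. SERPINH1, the collagen chaperone HSP47, rose from 8073 to 15192 and fell from 13453 to 5198. CREB3L1, a transcription factor for collagen genes in bone, rose by 2.17 ± 0.31 and 1.69 ± 0.18 and then fell by 1.52 on the log2 scale (standard error 0.34). LOX and PLOD2, which cross-link and hydroxylate collagen, instead rose to CM, by 3.21 ± 1.07 and 1.72 ± 0.48. Of 9 collagen receptors, ITGA1, ITGA2, ITGA10, ITGB1 and DDR1 rose to CM and MRC2, which takes up collagen for degradation, fell. The ITGB1 value is that of a single transcript, ENST00000423113.5, which went from 69.1 to 9215, and does not give the total of the gene.

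The next comparison asks how collagen transcripts differ in CMs without UBE2B. The targeted gene was listed through ENST00000499038.2 for UBE2B-/-1, with means of 179.1 in wild type and 47.6 (-1.91 ± 0.53), and the value traced for UBE2B-/-2 was -1.57. The 3 other UBE2B transcripts listed from CP to CM were listed for neither line. Nearly all collagen calls were higher in the mutant lines. In UBE2B-/-1, 8 transcripts of 6 genes were called higher and 0 lower, beside 2.18% and 1.72% of all transcripts tested. In UBE2B-/-2, 21 of 15 genes were called higher and 2 lower, beside 2.46% and 1.53%. The 0 is over transcripts that sleuth lists, so collagen transcripts lower at an unadjusted p under 0.05 alone are not seen. With a t distribution on 6 degrees of freedom, 0 collagen calls and 0 calls of any gene were left in either line. In both lines 7 transcripts of 6 genes were called higher and 0 lower, beside 1.52% and 0.909% of all transcripts. By gene, 13.6% of the 44 collagen genes had a higher call in UBE2B-/-1 and 34.1% in UBE2B-/-2, against 5.91% and 6.49% of protein-coding genes. For lower calls the shares were 0% against 4.12% in UBE2B-/-1 and 4.55% against 3.54% in UBE2B-/-2. So lower calls were not fewer than in coding genes in UBE2B-/-2. The lines share the wild-type libraries, so their changes are not independent.

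The genes called in both lines were COL3A1, COL5A1, COL6A3, COL27A1, COL15A1 and COL9A3. COL3A1 (ENST00000304636.7) had a mean of 7393 in wild-type CMs, 84231 in UBE2B-/-1 and 207028 in UBE2B-/-2, log2 changes of 3.51 ± 0.79 (q = 9.1e-04) and 4.81 ± 0.79 (q = 5.8e-07). Its transcript ENST00000317840.9 had means of 1968, 10198 and 39120. COL5A1 (ENST00000371817.7) had means of 6045, 31088 and 46503, changes of 2.36 ± 0.72 (q = 0.030) and 2.94 ± 0.72 (q = 0.0031). For the COL6A3 transcript ENST00000472056.5, itself nearly absent from wild-type CMs, the means were 5.07, 2271 and 3663 (q = 0.0046 and 0.0017). COL27A1, a fibrillar collagen of cartilage and other tissues, had means of 500.8, 1531 and 1372 (1.61 ± 0.33 and 1.45 ± 0.33), the smallest error of these genes. The COL15A1 transcript ENST00000610452.1 and the retained-intron COL9A3 transcript ENST00000466192.5 had no estimated count in wild type, with means of 74.1 and 46.7 and of 21.7 and 21.7 in the lines. Another COL15A1 transcript, ENST00000375001.8, had a mean of 98.2 in wild-type CMs in the CP to CM fit and was listed for neither line. The 7 transcripts called in both lines had mean changes over both lines between 1.53 ± 0.29 for COL27A1 and 9.15 ± 1.94 for COL6A3.

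A further 18 transcripts were listed for 1 line, 17 of them for UBE2B-/-2. For these the variance columns leave 2 possible changes in the other line, and the wild-type mean in the CP to CM table singled out 1 for 8 of them. COL1A2 (ENST00000620463.1) then had means of 2572 in wild type, 25362 in UBE2B-/-1 and 41264 in UBE2B-/-2, changes of 3.30 and 4.0 (± 1.12, q = 0.013 in UBE2B-/-2). COL6A1 had means of 2134, 5908 and 8912, changes of 1.47 and 2.06 (± 0.67, q = 0.048 in UBE2B-/-2). COL6A2 (ENST00000300527.8) had means of 652.0, 4485 and 8449, changes of 2.78 and 3.70 (± 1.06, q = 0.017 in UBE2B-/-2). So COL6A1, COL6A2 and COL6A3 had higher means in both lines, of which COL6A3 was called in both and COL6A1 and COL6A2 in UBE2B-/-2, and COL6A6 was listed for neither. COL26A1 had traced changes of 2.24 and 2.77, COL4A5 0.30 and 0.68, and the short COL1A1 transcript 1.20 and 1.49.

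The main COL1A1 transcript (ENST00000225964.9) was listed for UBE2B-/-2 (3.94 ± 1.25, q = 0.038), and its change in UBE2B-/-1 could be 0.39 or 3.55. COL11A1, COL16A1, COL14A1 and COL8A2 were likewise called higher in UBE2B-/-2 (3.06 to 6.62), with both possible values in UBE2B-/-1 above 0. The possible wild-type means were 0.57 or 0.5 for COL16A1, 2.17 or 1.88 for COL14A1 and 3.52 or 1.92 for COL8A2. The sizes of the COL16A1, COL14A1 and COL8A2 changes therefore depend on the pseudocount. Only COL19A1 and COL7A1 were called lower. COL19A1 had means of 95.9, 22.7 and 15.3, changes of -2.08 and -2.65 (± 0.84). For the retained-intron COL7A1 transcript ENST00000459756.5, the change in UBE2B-/-2 was -3.95 ± 1.30 (q = 0.048) and that in UBE2B-/-1 could be 0.11 or -4.06. The latter would have been large enough to be listed for UBE2B-/-1, which leaves 0.11.

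**Figure D4:**
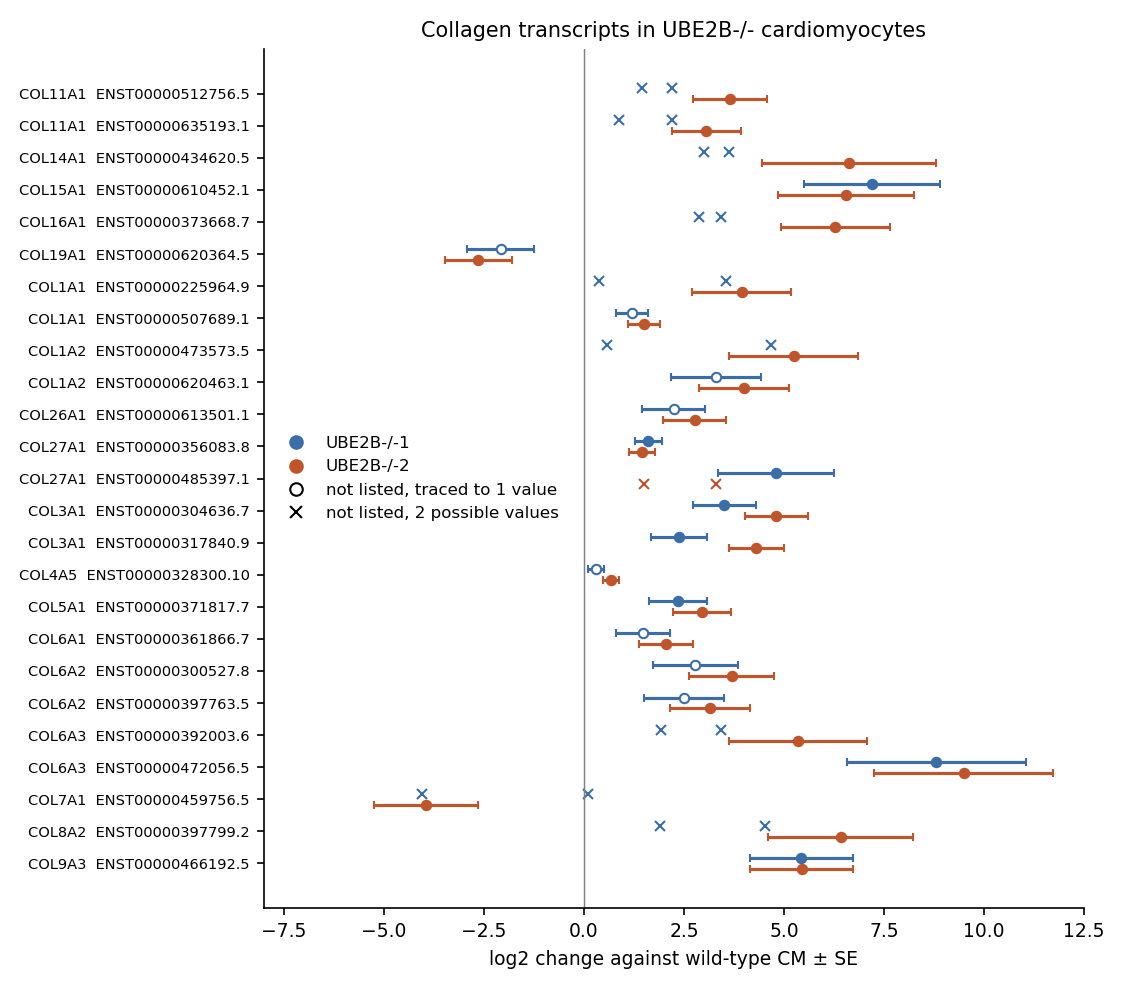
Log2 change against wild-type CM (horizontal axis) of the 25 collagen transcripts listed for a UBE2B-/- line, with bars of 1 standard error of the fit. Open circles are changes in the line that does not list the transcript, traced to 1 value, crosses are the 2 values that remain where tracing failed, and only COL19A1 and COL7A1 lie below 0.

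The difference between the lines was tested for the 15 collagen transcripts whose changes in both lines are known, by the Wald ratio to sleuth's standard error, adjusted over all 2927 such transcripts. Of the 15, 14 were higher in both lines and COL19A1 was lower in both, and 13 had the larger change in UBE2B-/-2. The median log2 change over the 15 was 2.37 in UBE2B-/-1 and 3.15 in UBE2B-/-2. However, 8 of the 15 were listed for UBE2B-/-2 alone, so a larger change there followed from the listing limit. For that reason neither the 13 nor the medians compare the lines. None of the 15 passed the adjustment at 0.05, with 0.49 as the smallest adjusted p by sleuth's Wald ratio. Without adjustment 1 did, the COL3A1 transcript ENST00000317840.9 (1.94 with a 95% interval from 0.58 to 3.30). For the main COL3A1 transcript the difference of UBE2B-/-2 minus UBE2B-/-1 was 1.30 with a 95% interval from -0.25 to 2.85, and for COL5A1 it was 0.58 with an interval from -0.84 to 2.00. These intervals are wide, so equal changes are not shown.

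The spread between replicate libraries of collagen was larger where mutant CMs were in the fit. The residual SD within groups was set side by side for the 14 collagen transcripts listed both from CP to CM (6 wild-type libraries) and for a line (9 CM libraries, with the same 3 wild-type CM libraries in both). It was larger in the second fit for 13 of the 14, with a median of 0.42 against 0.96 on the log2 scale. Over the other 2283 transcripts listed in both fits the medians were 0.28 and 0.36, and 65.4% had the larger SD in the second fit. With a mean of at least 100 counts, the median ratio was 1.92 for 10 collagen transcripts and 1.22 for 1738 others. COL6A2 (ENST00000300527.8) had 0.10 and 1.30, COL1A2 0.16 and 1.37, COL6A1 0.10 and 0.83, and COL5A1 0.22 and 0.89. If the wild-type CM libraries spread no more than in the CP to CM fit, at least 99.6% of the residual sum of squares of COL6A2, 99.1% of that of COL1A2 and 99.0% of that of COL6A1 came from the 6 mutant libraries. An SD of 1.30 is large beside the COL6A2 changes of 2.78 and 3.70, and which mutant libraries were high is not known.

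**Figure D5:**
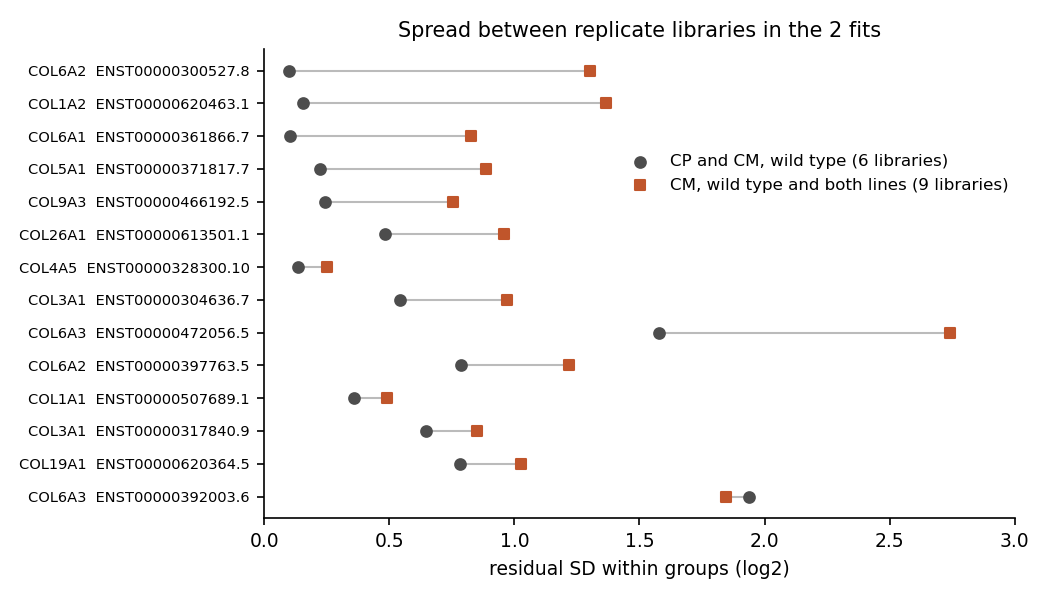
Residual SD within groups on the log2 scale (horizontal axis) of 14 collagen transcripts in the fit of wild-type CP and CM (circles) and in the fit of wild-type and UBE2B-/- CMs (squares). The square lies to the right for 13 of the 14, farthest in ratio for COL6A2 (0.10 and 1.30).

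Markers of several cell types moved in the mutant lines too. Of the 5 cardiac progenitor markers, GATA4 alone was listed, with ENST00000647274.1 higher in both lines (1.49 ± 0.32 and 1.82 ± 0.32). No pluripotency, mesoderm, epicardial, endothelial, cartilage and notochord or endoderm and liver marker was listed for a line. Of the 9 fibroblast and mesenchymal markers, 4 were called higher and 0 lower in each line, with summed means of the 3 with known means of 881 in wild type and 6904 in UBE2B-/-1, and of 1354 and 11367 for UBE2B-/-2. DCN, the fibril-binding proteoglycan decorin, went from 7.16 in wild type to 636.9 and 1804, and FBLN1 from 873.3 to 6125 and 5617. TCF21, a fibroblast transcription factor, was under 3 estimated counts in wild type for the transcript listed in UBE2B-/-1. Of the 5 cardiomyocyte markers, 3 were lower in UBE2B-/-1 and 4 in UBE2B-/-2, with TNNT2 at 25620 in wild type and 9215 and 7491 in the lines. The MYL7 calls were of transcripts with wild-type means of 487.0 (UBE2B-/-1) and 6153 (UBE2B-/-2), and the MYH6 call of one at 501.9. The MYL7 and MYH6 transcripts with means of 79958 and 61494 at CM in the CP to CM fit were listed for neither line. Of the smooth muscle markers, the CNN1 transcript ENST00000586059.5, with a wild-type mean of 726.0, was lower in both lines (-1.87 ± 0.28 and -1.84 ± 0.28). The CNN1 transcript ENST00000252456.7, with a mean of 6505 at CM in the CP to CM fit, was listed for neither line. Of the 35 collagen synthesis genes, 7 were higher and 1 lower in UBE2B-/-1 and 10 higher and 1 lower in UBE2B-/-2, where 5.91% and 6.49% of coding genes had a higher call and 4.12% and 3.54% a lower one. CRTAP, FKBP10, P3H3, SEC24D, BMP1 and LOXL3 were higher in both, P3H3 by 2.54 ± 0.52 and 2.80 ± 0.52, and TMEM38B, an ion channel gene, was lower by 1.13 and 1.03 on the log2 scale (standard errors 0.29). For FKBP10 the listed transcript with the highest mean differed, ENST00000489591.5 in UBE2B-/-1 and ENST00000321562.8 in UBE2B-/-2. Of the receptors, the ITGB1 transcript ENST00000423113.5 was lower in both (-1.82 ± 0.26 and -1.91 ± 0.26). DDR1 had a higher call in both, but its listed transcript with the highest mean differed. It was ENST00000548133.4 in UBE2B-/-1 (1.30 ± 0.36) and ENST00000376568.7 in UBE2B-/-2 (0.86 ± 0.25). MRC2 was called higher in UBE2B-/-2 (2.54 ± 0.75) and was not listed for UBE2B-/-1. The part of the cell mixture in the collagen changes was not tested.

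The span of the collagen genes higher in the mutants varied. In GENCODE 44 the median span of the 44 collagen genes was 144.8 kb, against 27.4 kb for protein-coding genes. Over all genes, those called higher in both lines had a median span of 25.8 kb and those called lower 65.0 kb, whereas the 6 collagen genes called higher in both spanned 24.9 to 203.0 kb with a median of 109.0 kb. The 15 collagen genes called higher in UBE2B-/-2 spanned 17.5 to 313.8 kb with a median of 52.1 kb, against 29.1 kb over all genes called higher there. The transcripts called higher in both lines had a median of 47 exons for the collagens against 8 over all genes. CMes to CP shares no library with the mutant comparison. The 4 collagen transcripts (of 3 genes) called in CMes to CP and in both lines were higher in all 3, whereas over all genes, of the transcripts called higher at CP and called again in both lines, 90 were higher there (49.2%) and 93 lower. With UBE2B-/-2 alone, 8 collagen transcripts were called in both, of which 6 were higher in both, COL19A1 was higher and then lower, and COL6A1 lower and then higher. Over all genes, 60.8% of those higher at CP and called again in UBE2B-/-2 were higher there.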

How the data were processed

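The authors trimmed reads with FASTX, quantified transcripts with kallisto on hg38 and ran the Wald test of sleuth on each adjacent pair of stages and on CMs of wild type and both UBE2B-/- lines. The 6 deposited tables hold p-values and q-values, changes with standard errors and means on a natural log scale of estimated counts plus 0.5, and variance scores that the authors' fit gave. They are the authors' own contrasts and were used because the tables hold 0 columns of per-sample values. Only q-values of at most 0.05 are listed. Tested numbers came from p, rank and q. A change in an unlisted line was solved from the variance scores and kept where the wild-type mean matched the CP to CM table (offset 0.143) within 0.005, with the other value off by at least 0.015. The steps were tested on simulated data. Alternatives were other fold and q limits, a t distribution, a minimum mean and another pseudocount. In each table the transcript with the highest mean speaks for a gene, the 5 genes with the largest ratio to the standard error per direction and 12 preset collagens get full values, and others are given by change or range. Members and lists were chosen with earlier results of these data known. Of 106 transcripts, 94 matched GENCODE 44. Python 3.11.15, pandas 2.3.3 and scipy 1.17.1 were used. Replicates are separate plates, so p-values measure the spread between plates of 1 line.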

Additional observations from a re-analysis of the deposited data

How the results depend on the processing

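No paired analysis was possible because the tables hold no value per library, and for the same reason leaving out a replicate was not run. Of 89 recomputed counts, 65 stayed within 1.5 times. The 65 include the 0 lower calls in UBE2B-/-1 and in both lines, which could only stay 0 because only listed transcripts were recomputed. A t distribution on 4 or 6 degrees of freedom, which ignores the variance shared between transcripts, left 0 calls in either direction from iPSC to M, M to CMes and CMes to CP, 2 lower and 1 higher from CP to CM, and 0 in UBE2B-/-1, UBE2B-/-2 and both lines. Over all genes it left 0, 0, 1 and 561 calls at the transitions and 0 in either line, and all but 3 of the collagen entries kept an unadjusted p under 0.05 with it. A q-value of at most 0.01 left 6 lower from iPSC to M, 5 higher in UBE2B-/-1, and 0 lower and 10 higher in UBE2B-/-2. A limit of 1.5-fold on the natural-log scale gave 2 higher from iPSC to M and no fold limit gave 4. A mean of at least 10 counts left 19 higher from CP to CM and 1 lower in UBE2B-/-2. Chosen after seeing the data, both group means of at least 3 counts left 18 higher from M to CMes, 19 lower and 17 higher from CP to CM and 5 higher in UBE2B-/-1. In UBE2B-/-2 this setting left 14 higher. With a pseudocount of 5 none of 105 changes reversed and 19 moved by over 1 residual SD. Tracing also by the listing limit, chosen after seeing the data, left 0 collagen differences between the lines, with COL7A1 at an adjusted p of 0.072. Depth per library is unknown.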

Other observations

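Some collagen transcripts sit where a count near zero sets the size of a change. Of the 34 transcripts called higher from M to CMes, 16 had a group mean under 3 estimated counts, and so did 13 of the 32 lower and 12 of the 29 higher from CP to CM. COL13A1, COL9A2, COL4A6, COL21A1, COL11A2 and COL6A3 are among them, and their log2 changes depend on the pseudocount of 0.5.

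Of the 94 listed collagen transcripts that GENCODE 44 holds, 65 are annotated as coding (69.1%), 18 as retained introns (19.1%) and 4 as targets of nonsense-mediated decay (4.26%). Over all 20326 listed transcripts it holds, the shares were 80.2%, 7.27% and 5.51%. Of the genes with several listed transcripts, 1 of 12 from CMes to CP (COL6A3) and 2 of 18 from CP to CM (COL1A1 and COL5A1) had transcripts in both directions, and 0 of 7 from M to CMes.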
